A study of Arabidopsis thaliana with 6 samples.

Results

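The genes described here encode photosynthesis proteins of Arabidopsis thaliana that are made from the nuclear genome, and the data are the places near them where chromatin was recovered with an anti-FLAG antibody. A gene was included when a peak of any of 4 deposited lists was assigned to it and its annotation named a chlorophyll a-b binding protein, photosystem I or II, the oxygen-evolving complex, ribulose bisphosphate carboxylase (Rubisco) or ferredoxin, with thioredoxins left out. This gave 58 of the 12573 nuclear genes with a peak in any list. The CND1-FLAG plants carry pCND1-Flag in the cnd1-3 mutant background, and the Col-0 plants are untagged wild type, so a Col-0 peak marks signal that needs no tag. Seedlings of each genotype gave 2 ChIP libraries and 1 input. The labels give no seedling age, no transgene line number and no statement that the 2 libraries of a genotype came from separate plants, so the p-values measure only the spread between these libraries. Mutant background, transgene and tag all separate CND1-FLAG from Col-0 and cannot be told apart.

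Photosynthesis proteins of the chloroplast come from both plastid and nuclear genes. The reaction-centre proteins and the large subunit of Rubisco are encoded in the plastid, whereas the light-harvesting antenna, many smaller photosystem subunits, the oxygen-evolving proteins, the small subunit of Rubisco and ferredoxin are encoded in the nucleus and imported. Their nuclear genes are among the most highly transcribed in green seedlings and respond to light and to signals from the chloroplast. Peak lists measure no RNA, so the tissue could not be checked against expressed markers, and no transcript level is given.

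By role, the 58 genes comprised 14 of the photosystem II antenna, 7 of the photosystem I antenna, 10 of the photosystem I core, 13 of photosystem II and the oxygen-evolving complex, and 5 of Rubisco and its activase. Another 5 encode ferredoxins or ferredoxin-NADP reductase, 3 encode ferredoxin-dependent enzymes of nitrogen and sulfur assimilation, and 1, FAD8, encodes a fatty acid desaturase. The enzymes of assimilation and FAD8 were included by the word ferredoxin and do not belong to the photosynthetic apparatus. In 4 cases the annotation is a similarity match of an overlapping locus. AT1G05207, a long noncoding RNA, overlaps LHCB6. AT1G55673 overlaps PSAG, AT4G28755 overlaps PSAE-1, and AT1G07737, a long noncoding RNA, overlaps AT1G51400. Peaks assigned to those 4 loci lie on these photosynthesis genes as well.

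Fold enrichment is the height of a summit over its local background, as the peak caller wrote it. At the strongest peak of each gene the fragments behind it could be worked out from the fold and the p-value. The lowest and highest were 55 and 340 fragments in CND1-FLAG replicate 1, and 55 and 311 in CND1-FLAG replicate 2, over median backgrounds of 53.4 and 48.3 fragments. They were 105 and 226 fragments in Col-0 replicate 1, and 99 and 222 in Col-0 replicate 2, over median backgrounds of 88.5 and 94.2 fragments. All these backgrounds are expressed at the depth of the ChIP library, and at that depth they were higher in Col-0. They do not give the depth of the inputs. The lists held 13044 and 10538 peaks in CND1-FLAG and 6152 and 5722 peaks in Col-0.

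Photosynthesis genes carried peaks in both genotypes, in larger number when the tag was present. In each CND1-FLAG list 50 of the 58 genes had a peak, and in each Col-0 list 25 had one. The means were thus 50 ± 0 genes for CND1-FLAG and 25 ± 0 genes for Col-0 (SD, n = 2 each), which differ by 25. The exact two-sided permutation test over libraries gave p = 0.333, the smallest value that 2 against 2 libraries allow. The 58 genes were included for having a peak in these same lists. Of them, 21 came in through both CND1-FLAG lists alone, 6 through 1 CND1-FLAG list alone and 4 through Col-0 lists alone. The counts and their test are thus not independent of the inclusion, and no conclusion is drawn from them. All nuclear genes moved the same way, numbering 9806 and 8305 with CND1-FLAG, against 5195 and 4899 with Col-0. As a share of the nuclear genes in a list, the photosynthesis genes made up 0.510% and 0.602% in CND1-FLAG and 0.481% and 0.510% in Col-0. These shares overlapped between genotypes (exact two-sided permutation p = 0.667).

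The lists differ in length, and cutting each to the length of the shortest by its q-value gave another picture. The CND1-FLAG lists then held 42 photosynthesis genes each, among 5130 and 5034 nuclear genes. The Col-0 lists held 24 and 25, among 4881 and 4899 nuclear genes. The shares were 0.819% and 0.834% in CND1-FLAG and 0.492% and 0.510% in Col-0, so at equal length the genotypes did not overlap. With 2 libraries a side this difference has the same smallest exact p.

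Where the peaks of the lists shared at least 1 bp they were merged to regions. CND1-FLAG-specific regions are those with peaks of both CND1-FLAG libraries and of neither Col-0 library. Shared regions hold peaks of both CND1-FLAG libraries together with a peak of 1 or both Col-0 libraries. Among the 58 genes, 27 (46.6%) had a CND1-FLAG-specific region, compared with 29.3% of all nuclear genes with a peak in any list. A shared region was found at 24 (41.4%), compared with 30% of all nuclear genes with a peak. Both shares were above their background, and so was the share called in both CND1-FLAG lists, 46 of the 58 genes (79.3%), compared with 55.3% of all. A fold of at least 2 in both CND1-FLAG lists was reached by 30 genes (51.7%), compared with 20.4% of all. These shares have no test, and the members had to have a peak to be included. When peaks under a fold of 2 were dropped from every list, 43 of the genes kept a peak. The shared share then turned, at 2 genes (4.65%), compared with 8.07% of all nuclear genes that kept one. A specific region was found at 27 genes (62.8%), compared with 33.2%, but 16 of these were specific with all peaks, and the other 11 had a shared region with all peaks.

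In gene terms, 21 genes had peaks in both CND1-FLAG lists alone (36.2%, against a background of 23.5%), 16 in all 4 lists (27.6%, against 19.8%) and 9 in both CND1-FLAG lists and 1 Col-0 list. A further 6 had a peak in 1 CND1-FLAG list alone, and 2 had peaks in 1 CND1-FLAG list and both Col-0 lists. The remaining 4 (6.9%, against 11.2%) had peaks in Col-0 lists alone. For the patterns given without a background, no share over all nuclear genes was worked out, so nothing is read from their counts.

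**Figure D1:**
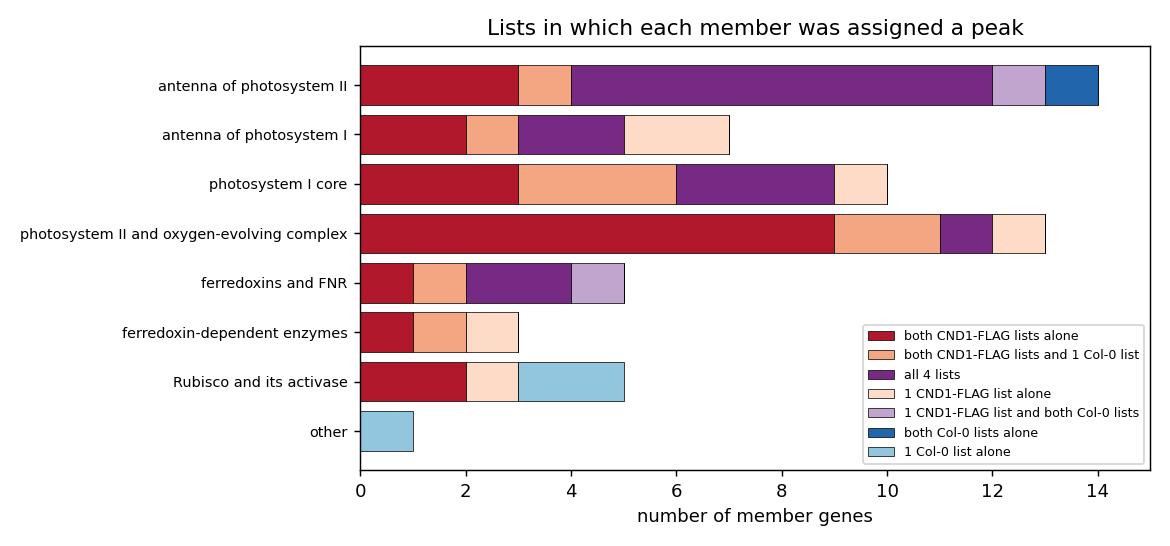
Number of member genes (x axis) in each role group (rows), coloured by the lists in which the gene was assigned a peak. Of the 14 photosystem II antenna genes 8 were called in all 4 lists, and of the 13 genes of photosystem II and the oxygen-evolving complex 1 was. Of all nuclear genes with a peak in any list, 19.8% were called in all 4 lists.

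The role groups differed in how often Col-0 also had a peak. In the photosystem II antenna, both CND1-FLAG libraries called 12 of 14 genes, all 4 libraries called 8, and 9 genes had a shared region. In photosystem II and its oxygen-evolving complex, both CND1-FLAG libraries called 12 of 13 genes and all 4 libraries called 1, while 10 genes had a CND1-FLAG-specific region. The photosystem I core lay between, with 4 of 10 genes having a specific and 6 a shared region. In that core the specific region of PSAN and the shared regions of PSAO and PSAK lay over neighbouring genes. So did the shared region of AT1G29910 in the photosystem II antenna. For comparison, 29.3% of all nuclear genes with a peak had a specific region and 30% a shared one. Both CND1-FLAG libraries called 55.3% of them, and all 4 libraries 19.8%. The difference between role groups was seen on inspecting the counts and was not tested.

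The photosystem II antenna binds chlorophyll a and b and passes excitation to photosystem II. Its outer part consists of LHCB1 and LHCB2 proteins, and it held the strongest peaks of all 58 genes. LHCB2.4 (AT3G27690, listed as LHCB2.3 in the gene table) had a fold of 6.22 and 6.32 in CND1-FLAG replicates 1 and 2, against 1.63 and 1.65 in Col-0 replicates 1 and 2. Behind these values stood 340 and 311 fragments in CND1-FLAG, over backgrounds of 53.8 and 48.3. The exact Poisson 95% intervals of the counts were 305 to 378 and 277 to 348. In Col-0 there were 213 and 211 fragments over backgrounds of 130 and 127. These were the highest Col-0 backgrounds at the strongest peaks of the members, whose medians were 88.5 and 94.2. The LHCB2.4 region spanned positions 10255798 to 10257143 of chromosome 3 (TAIR10). Its strongest CND1-FLAG summit lay 606 bp downstream of the gene start, inside the gene.

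LHCB1.3 (AT1G29930), an LHCB1 gene of the chromosome 1 cluster, had a fold of 4.53 and 3.94 in CND1-FLAG, against 1.5 and 1.61 in Col-0. Its region lay at 10477866 to 10479040, with the strongest CND1-FLAG summit 389 bp into the gene. LHB1B2 (AT2G34420, LHCB1.5) had 3.01 and 3.67 in CND1-FLAG, against 1.81 and 1.63 in Col-0, in a region at 14522559 to 14523627 of chromosome 2. For all of these genes both CND1-FLAG values exceeded both Col-0 values. The neighbours in each cluster were weaker. AT1G29920 (CAB2) had 2.26 and 2.34 in CND1-FLAG, against 1.78 and 1.55 in Col-0. LHB1B1 (AT2G34430, LHCB1.4) had 1.99 and 1.98 in CND1-FLAG, against 1.61 and 1.46 in Col-0. LHCB1 genes are close copies of each other, and how multiply mapping reads were handled is not given in the sources used here, so the split of signal among them is uncertain.

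LHCB2.1 (AT2G05100), the other strong LHCB2 gene, had 2.76 and 2.43 in CND1-FLAG, against 1.72 and 1.72 in Col-0. AT1G05207, the noncoding locus over LHCB6, had 2.57 and 2.77 in CND1-FLAG and no Col-0 peak, in a region at 5446687 to 5447796 of chromosome 1. LHCB6 encodes CP24, a minor antenna protein that joins the outer antenna to the core. Of the other minor antenna genes, LHCB4.1 had peaks in both CND1-FLAG lists alone, and LHCB4.2 and LHCB4.3 had peaks in all 4. LHCB5, which encodes CP26, was the exception of the group. It had peaks of 1.71 and 1.75 in Col-0 replicates 1 and 2 and none in either CND1-FLAG list, with the strongest summit 1261 bp into the gene. LHCB3 had a CND1-FLAG-specific region, and LHCB2.2 was called in 1 CND1-FLAG list and both Col-0 lists.

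**Figure D2:**
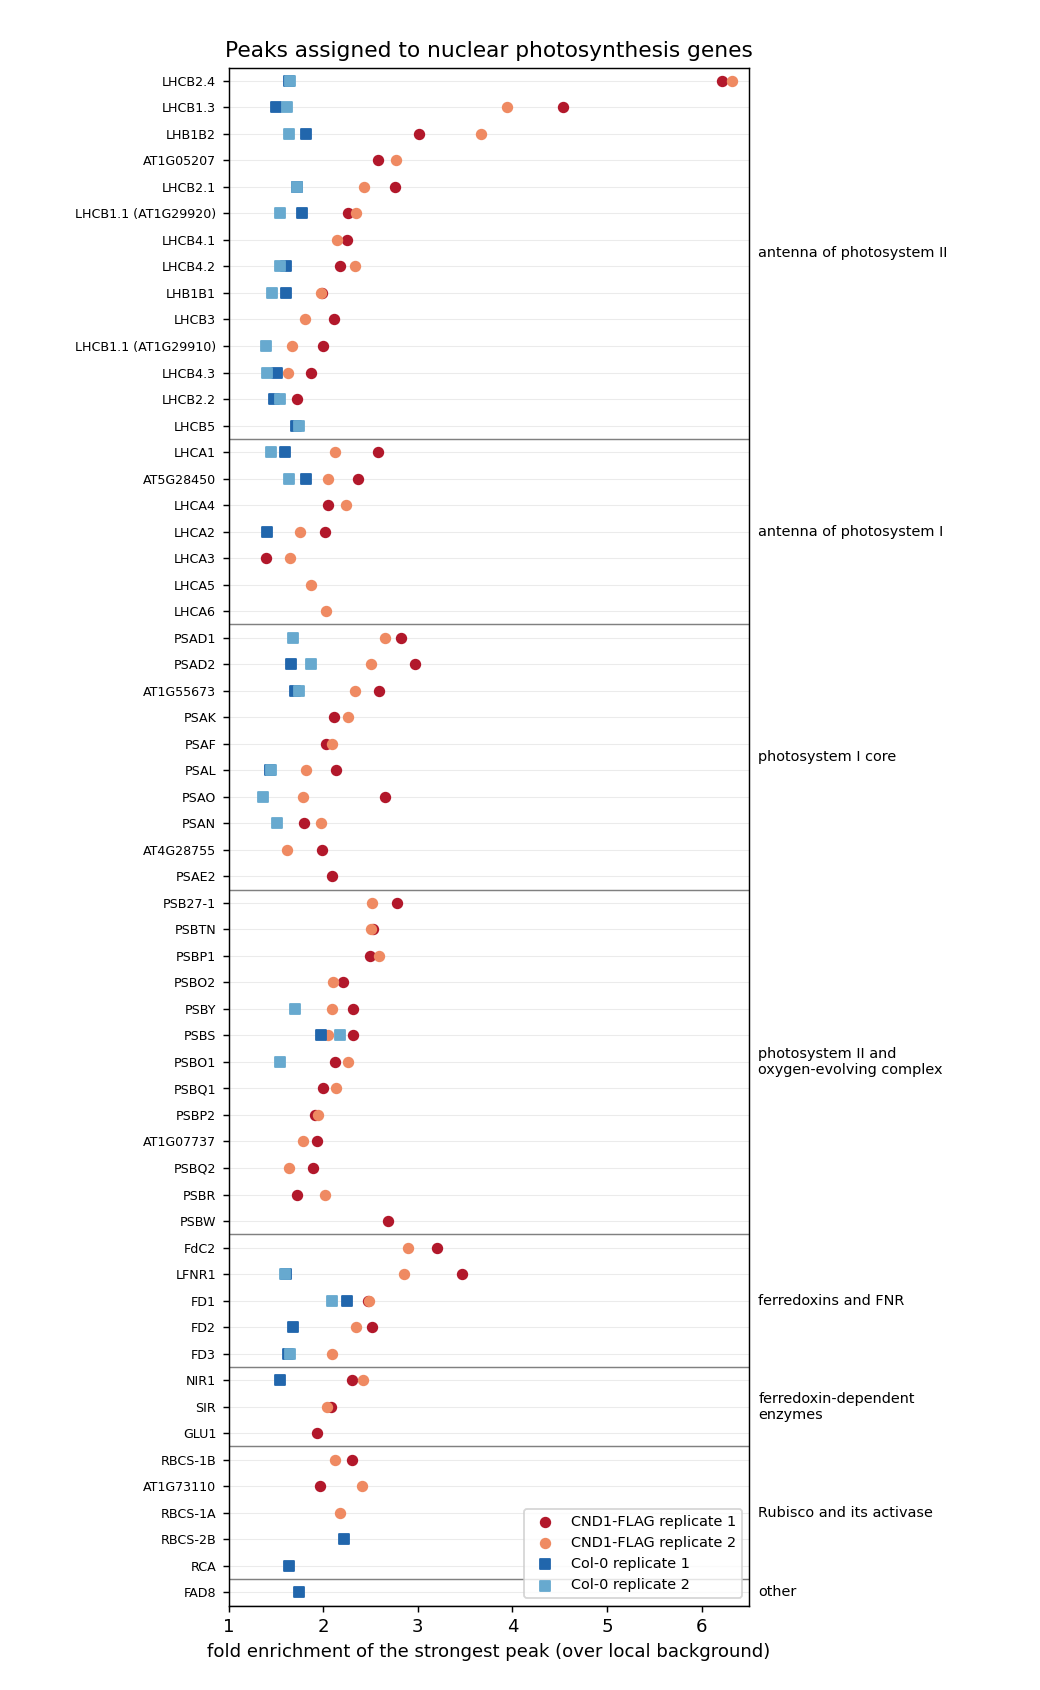
Fold enrichment over local background (x axis) of the strongest peak of each member gene (rows, grouped by role) in the 4 lists, circles for CND1-FLAG and squares for Col-0. A missing point means that no peak of that list was assigned to the gene, and points of 1 gene can come from different sites. LHCB2.4 stands apart at 6.22 and 6.32 in CND1-FLAG, and the Col-0 points of all members lie between 1.36 and 2.25.

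The photosystem I antenna consists of LHCA proteins that surround the photosystem I core. LHCA1 (AT3G54890) had 2 regions that differed by genotype. The one near its start, at 20340591 to 20341021 of chromosome 3, was CND1-FLAG-specific with 2.58 and 2.12. The one in its later part, at 20339664 to 20340270, was in all 4 lists with 1.5 and 1.58 in CND1-FLAG and 1.60 and 1.45 in Col-0, so there the genotypes overlapped. AT5G28450, described with the same protein name as LHCA2, showed the same arrangement. Its region near the start, at 10373771 to 10374307 of chromosome 5, had 2.36 and 2.05 and no Col-0 peak. Its second region, at 10372993 to 10373477, had 1.79 and 1.88 in CND1-FLAG, against 1.81 and 1.64 in Col-0.

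LHCA4 (AT3G47470) had 2.05 and 2.24 in CND1-FLAG and no Col-0 peak. LHCA2 (AT3G61470) had 2.02 and 1.76 in CND1-FLAG, against 1.4 in Col-0 replicate 1 and no peak in Col-0 replicate 2. LHCA3 (AT1G61520) had 1.39 in CND1-FLAG replicate 1, the lowest fold of the members there, and 1.65 in CND1-FLAG replicate 2, in another region, with no Col-0 peak. Its peak in replicate 1 rested on 73 fragments (exact Poisson 95% interval 57.2 to 91.8) over a background of 52.1. LHCA5 and LHCA6 were called in CND1-FLAG replicate 2 alone.

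The core of photosystem I carries electrons from plastocyanin to ferredoxin, and PSAD forms part of the site where ferredoxin docks. Both PSAD genes had peaks inside the gene in both genotypes. PSAD1 (AT4G02770) had 2.82 and 2.65 in CND1-FLAG, against 1.68 in Col-0 replicate 2 and no peak in Col-0 replicate 1, at 1229359 to 1229960 of chromosome 4. PSAD2 (AT1G03130) had 2.97 and 2.50 in CND1-FLAG, against 1.66 and 1.87 in Col-0, at 753663 to 754217 of chromosome 1. AT1G55673, the locus over PSAG, had 2.59 and 2.33 in CND1-FLAG, against 1.70 and 1.75 in Col-0. In each of these, both CND1-FLAG values exceeded every Col-0 value.

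PSAF (AT1G31330), the plastocyanin-docking subunit, had 2.03 and 2.09 in CND1-FLAG and no Col-0 peak. PSAK (AT1G30380), a subunit that binds antenna proteins, had 2.12 and 2.26 in CND1-FLAG as its strongest peaks. These lay in different regions. In its own body the region at 10722461 to 10723102 of chromosome 1 had 2.12 and 1.91 and was CND1-FLAG-specific, and the other lay over the neighbouring gene AT1G30390. In that second region Col-0 replicate 2 also had a peak, of 1.59, which the list assigned to AT1G30400. The remaining genes of the core were PSAL, PSAO, PSAN, AT4G28755 (over PSAE-1) and PSAE2. PSAE2 was called in CND1-FLAG replicate 1 alone, with 2.09, and the other 4 in both CND1-FLAG replicates. The CND1-FLAG-specific region counted for PSAN lay past the gene end, over AT5G64030. On PSAN itself the only peak was in Col-0 replicate 2. The PSAO region called in both CND1-FLAG replicates lay over DCP1, and the peak on PSAO itself was in CND1-FLAG replicate 1 alone.

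In photosystem II and its oxygen-evolving complex, which splits water on the inner side of the thylakoid membrane, most peaks had no Col-0 counterpart. PSB27-1 (AT1G03600), a factor of photosystem II repair and assembly, had 2.78 and 2.52 in CND1-FLAG in a region at 898834 to 899493 of chromosome 1. PSBTN (AT3G21055), a small subunit, had 2.53 and 2.51 at 7376620 to 7377198 of chromosome 3. PSBP1 (AT1G06680), an oxygen-evolving protein, had 2.49 and 2.59 at 2047854 to 2048429 of chromosome 1. For these 3 genes no Col-0 peak was called. The other main oxygen-evolving genes showed this too. PSBO2 (AT3G50820), a manganese-stabilizing protein, had 2.21 and 2.1 in CND1-FLAG and none in Col-0. PSBP2, PSBQ1, PSBQ2 and PSBR were likewise called in both CND1-FLAG lists alone, with folds of 1.72 to 1.99 in replicate 1 and 1.64 to 2.13 in replicate 2.

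The other manganese-stabilizing gene, PSBO1 (AT5G66570), had both kinds of region. Near its start, at 26568659 to 26569090 of chromosome 5, the fold was 2.12 and 2.26 in CND1-FLAG with no Col-0 peak. In its later part, at 26569535 to 26570116, it was 1.93 and 1.48 in CND1-FLAG, against 1.54 in Col-0 replicate 2. PSBY (AT1G67740) had 2.32 and 2.09 in CND1-FLAG, against 1.70 in Col-0 replicate 2. PSBS (AT1G44575), the protein that triggers heat dissipation in excess light, was singled out after its values were seen. It had 2.31 and 2.05 in CND1-FLAG, against 1.97 and 2.17 in Col-0, so the genotypes overlapped. This region, at 16870640 to 16871165 of chromosome 1, lies on the gene by the gene table, although the lists place its summit before the start of the transcript they name. PSBS also had a region in both Col-0 lists alone, at 16871759 to 16872510, with 1.71 and 1.64. PSBW had the strongest peak called in a single list, with 2.68 in CND1-FLAG replicate 1.

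Ferredoxin takes electrons from photosystem I, and ferredoxin-NADP reductase (FNR) passes them to NADPH. LFNR1 (AT5G66190, FNR1 in the gene table) had 3.47 and 2.86 in CND1-FLAG, against 1.60 and 1.59 in Col-0, for peaks assigned to it. These values belong to a wide region, 26451326 to 26455860 of chromosome 5, that also covers the neighbouring gene ARO2, and they come from different sites in it. In CND1-FLAG the strongest summit lay at -710 bp from the LFNR1 start in replicate 1, outside the gene, and at 659 bp, inside it, in replicate 2. Inside the gene, 584 bp from the start, replicate 1 had 3.15. All Col-0 summits assigned to LFNR1 lay before its start. AT4G14890, a ferredoxin-like protein named FdC1 in the gene table and FdC2 in the peak lists, had 3.20 and 2.90 in CND1-FLAG and no Col-0 peak. Its strongest region, at 8521643 to 8522270 of chromosome 4, lay past the gene end over AT4G14900. A weaker CND1-FLAG-specific region on the gene itself, at 8520873 to 8521368, had 2.51 and 2.26.

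The leaf ferredoxins resembled each other in CND1-FLAG and differed in Col-0. FD1 (AT1G10960) had 2.47 and 2.48 in CND1-FLAG, against 2.25 and 2.09 in Col-0. FD2 (AT1G60950), the main leaf ferredoxin, had 2.52 and 2.34 in CND1-FLAG, against 1.68 in Col-0 replicate 1 and no peak in Col-0 replicate 2. The FD1 values in Col-0 rested on 226 and 222 fragments. FD1 had the highest fold of the members in Col-0 replicate 1. FD3, a ferredoxin of non-green tissue, was called in CND1-FLAG replicate 2 and both Col-0 lists.

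Of the enzymes that use ferredoxin, NIR1 (AT2G15620), nitrite reductase, had 2.31 and 2.42 in CND1-FLAG at its start, at 6810480 to 6810845 of chromosome 2. In Col-0 replicate 1 it had 1.54, but in another region further into the gene. SIR (AT5G04590), sulfite reductase, had 2.08 and 2.04 in CND1-FLAG and no Col-0 peak. Both genes thus had a CND1-FLAG-specific region near the start. GLU1, glutamate synthase, was called in CND1-FLAG replicate 1 alone.

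Of the 5 genes of Rubisco, the carbon-fixing enzyme, and its activase, 2 had peaks in both CND1-FLAG lists, compared with 55.3% of all nuclear genes with a peak. RBCS-1B (AT5G38430), a small-subunit gene, had 2.31 and 2.12 in CND1-FLAG and no Col-0 peak, at 15384883 to 15385325 of chromosome 5. Its tandem neighbour RBCS-2B (AT5G38420) had 2.21 in Col-0 replicate 1 and no other peak, resting on 133 fragments over a background of 59.3. RBCS-1A (AT1G67090) had 2.18 in CND1-FLAG replicate 2 alone. The small-subunit genes are close copies as well, with the same uncertainty in how reads were split. AT1G73110, similar to Rubisco activase, had a CND1-FLAG-specific region at its start with 1.97 and 2.26. A stronger peak of 2.41 in CND1-FLAG replicate 2 alone was assigned to it but lies over AT1G73120. RCA (AT2G39730), Rubisco activase itself, had 1.64 in Col-0 replicate 1 and no CND1-FLAG peak. FAD8 had 1.75 in Col-0 replicate 1 alone, over the neighbouring gene AT5G05570. None of the 5 genes of Rubisco and its activase was called in all 4 lists, compared with 19.8% of all nuclear genes with a peak. With so few genes this absence says little about the group.

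Across the members CND1-FLAG replicates 1 and 2 had a median fold of 2.23 and 2.13, against 1.64 and 1.61 for Col-0 replicates 1 and 2. The same medians over all nuclear genes in each list were 1.99 and 1.95 in CND1-FLAG and 1.68 and 1.67 in Col-0. In the CND1-FLAG lists 36 of 50 genes had a fold of at least 2 in each replicate (72.0%), compared with 48.7% and 44.4% of all nuclear genes. In the Col-0 lists 2 of 25 did in each replicate (8.0%), compared with 13.6% and 13.9%. Photosynthesis genes were thus above the list median in CND1-FLAG and slightly below it in Col-0. Depth differs between the lists and the input behind each is not given, so these folds are set side by side without a test. By merged region, 16 member regions had a peak in all 4 lists, although the peaks of a region need not all overlap. In 12 of them (75%) both CND1-FLAG folds were above both Col-0 folds, compared with 67.8% of all nuclear regions in all 4 lists. This share is near the background. The other 4 regions, at PSBS, LHCA1, AT5G28450 and LHCB4.2, had overlapping genotypes, the last of them past the gene end over AT3G08943. In that last region the CND1-FLAG peaks did not overlap the Col-0 replicate 1 peak.

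**Figure D3:**
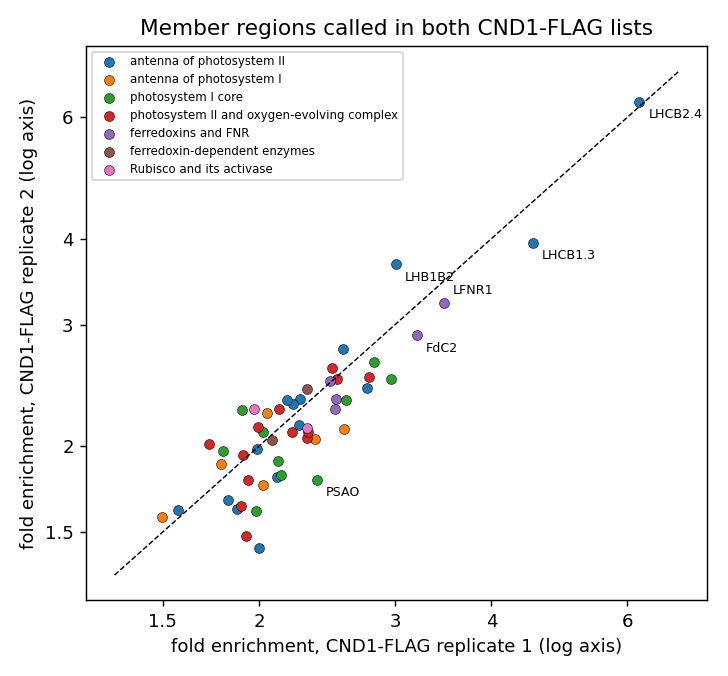
Fold enrichment in CND1-FLAG replicate 1 (x, log axis) and replicate 2 (y, log axis) for the 53 member regions called in both lists, coloured by role; the dashed line marks equal values. LHCB2.4 and LHCB1.3 of the photosystem II antenna are the highest in both, and the specific region of AT1G29910 lies furthest below the line, with 2.0 in replicate 1 and 1.42 in replicate 2.

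Both CND1-FLAG libraries ordered the regions in a similar way. Over the 53 member regions called in both lists the correlation across regions was 0.89 (Pearson, log2 fold) and 0.81 (Spearman), and over all 8049 nuclear regions called in both it was 0.83 and 0.68. Regions share libraries and input here and are not independent replicates. The log2 ratio of replicate 2 to replicate 1 was lowest at the specific region of AT1G29910, at -0.49, and highest at LHB1B2, at 0.29, with a median of -0.09. Replicate 2 was the higher one at 21 of the 53 regions.

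The 58 genes had 80 regions, of which 28 were CND1-FLAG-specific, 25 shared, 8 in Col-0 lists alone and 17 in 1 CND1-FLAG list alone. The other 2 were in 1 CND1-FLAG list and Col-0. Of all 17220 nuclear regions, 4011 were CND1-FLAG-specific and 4038 shared. Sequence within 1 kb of a gene start, on either side, held 62 of the 80 (77.5%, exact Clopper-Pearson 95% interval 66.8 to 86.1, counting error only), compared with 60.7% of all nuclear regions. Among specific regions 26 of 28 (92.9%) lay there, compared with 71.4% of all specific nuclear regions, and among shared ones 20 of 25 (80.0%), compared with 68.1%. Photosynthesis genes are short, with a median length of 1312 bp against 1859 bp for all nuclear genes with a peak, so that 1 kb covers more of them. By the gene table, 65 of the 80 regions overlapped the gene to which they were assigned. Against the transcript that the lists name, the strongest summit lay inside the gene in 61 regions (76.2%, against 61.0% of all nuclear regions) and up to 1 kb before the start in 6 (7.5%, against 9.47%). The peaks of these genes were thus mainly in the transcribed part and not in the promoter upstream of it.

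**Figure D4:**
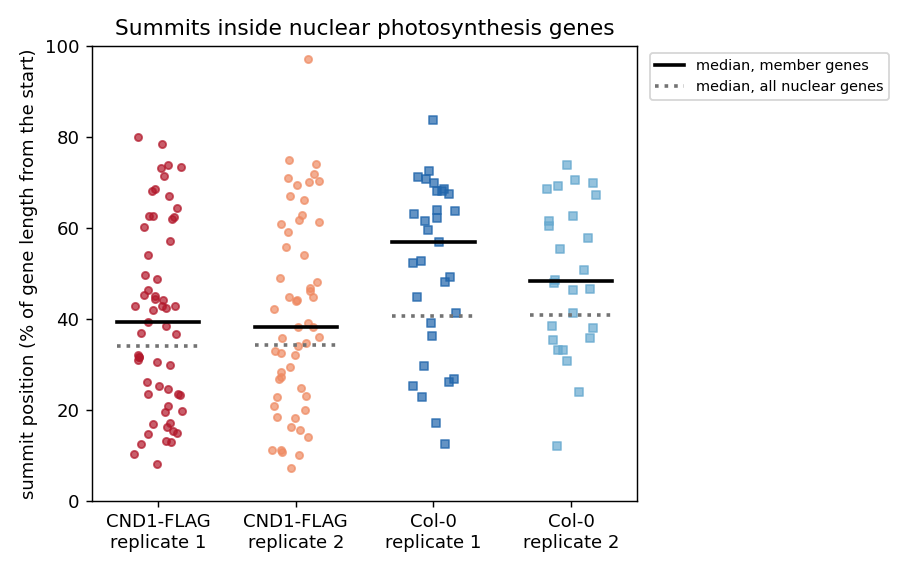
Position of each summit inside a member gene (y axis, percent of the gene length from the start) in the 4 lists, one point per summit, with the median over member genes as a solid bar and over all nuclear genes as a dotted bar. The CND1-FLAG medians are 39.3% and 38.3% and the Col-0 medians 56.9% and 48.2%.

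Inside the genes, CND1-FLAG summits lay nearer the start than Col-0 summits. The median summit was 416 and 414 bp from the start in CND1-FLAG and 693 and 624 bp in Col-0. As a share of gene length the medians were 39.3% and 38.3% in CND1-FLAG and 56.9% and 48.2% in Col-0, over 59, 55, 31 and 26 summits. CND1-FLAG libraries averaged 38.8 ± 0.74% and Col-0 libraries 52.6 ± 6.16% (SD, n = 2 each), and CND1-FLAG minus Col-0 was -13.7 percentage points. The groups did not overlap, with an exact two-sided permutation p = 0.333, the smallest possible. All nuclear genes moved the same way by less, with medians of 33.9% and 34.3% in CND1-FLAG and 40.7% and 40.9% in Col-0, so the direction is not particular to photosynthesis genes. Taking the strongest summit of each gene alone gave a difference of -24.1 points. How isoforms were chosen for the gene ends is not given in the sources used here.

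Single genes could be examined where both kinds of region occurred. This was so at 6 of the genes, LHCB1.1 (AT1G29910, CAB3 in the gene table), PSAK, LHCB2.4, LHCA1, AT5G28450 and PSBO1. At 5 of the 6 the summit of the specific region lay upstream of that of the shared one, 274 against 1056 bp from the start at LHCA1, 163 against 914 bp at AT5G28450 and 306 against 1350 bp at PSBO1. LHCB2.4 had the opposite order. Among the 492 nuclear genes with both kinds of region 48.2% had the specific one upstream. In AT1G29910 and PSAK the shared region lay past the gene end, over a neighbouring gene, and so did the specific region of LHCB2.4. Both regions lay on the gene itself at LHCA1, AT5G28450 and PSBO1. Where 1 region was called in both genotypes, the summits often coincided. At 16 of 24 such regions of the members (66.7%) they lay within 100 bp, compared with 66.5% of all nuclear ones.

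Other genes of the pathway came from 7 lists of 93 genes, of which 52 are not among the 58. Of these 52, 29 had a peak in any list, 12 of the 52 had a CND1-FLAG-specific region and 10 of the 52 a shared region. Of all 27444 protein-coding nuclear genes, 11378 (41.5%) had a peak, 3324 (12.1%) a specific and 3429 (12.5%) a shared region. None of the 52 had peaks in Col-0 lists alone, against 4.65% of all protein-coding nuclear genes. LHCB6, PSAG and PSAE-1 count here as genes without a peak, although peaks assigned to AT1G05207, AT1G55673 and AT4G28755 lie on them. A gene that the inclusion words name falls among the 52 only when it had no peak. The 52 are therefore not like for like with the background. Plastocyanin, the copper protein before photosystem I, is encoded by PETE2, which had 2.73 and 3.43 in CND1-FLAG, against 1.59 and 1.73 in Col-0. Of the Calvin-Benson cycle, CP12-2, a small regulator, had 2.76 and 3.31 in CND1-FLAG, against 2.17 and 2.14 in Col-0. PRK, phosphoribulokinase, had 2.74 and 2.1 in CND1-FLAG, against 1.48 and 1.63 in Col-0. CHLH, a magnesium chelatase subunit of chlorophyll synthesis, had 2.33 and 2.14 in CND1-FLAG, against 1.67 and 1.65 in Col-0. All 4 genes had a shared region, and both CND1-FLAG values of each were above both Col-0 values. Weaker shared regions were found at PETE1, the other plastocyanin gene, at GUN1, of chloroplast signalling, and at PIF1, a light-regulated transcription factor. PIF1 had 1.75 and 1.69 in CND1-FLAG, against 1.60 and 1.39 in Col-0, and GUN1 had 1.80 and 1.73 in CND1-FLAG, against 1.39 in Col-0 replicate 1 alone.

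Other pathway genes had no Col-0 peak. PSBX, a small subunit of photosystem II that the annotation words did not include, had 2.78 and 3.06 in CND1-FLAG. GLK2, a transcription factor that activates antenna and chlorophyll synthesis genes, had 2.85 and 2.69. Of chlorophyll synthesis, HEMA1, which makes the first committed precursor, had 2.23 and 2.01, and CRD1, a cyclase, had 2.31 and 2.07. ATPC1, a subunit of the chloroplast ATP synthase, had 2.15 and 2.11. In the chlorophyll synthesis list 4 of 15 genes had a specific and 2 a shared region. Of the 21 Calvin-Benson genes, Rubisco included, 5 had a specific and 4 a shared region, and of the 6 regulators 1 and 2. Of all protein-coding nuclear genes, 12.1% had a specific and 12.5% a shared region. The lists are small and their counts were not tested.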

How the data were processed

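Anti-FLAG ChIP was done on seedlings fixed with 1% formaldehyde for 10 minutes, sonicated and sequenced as paired ends, per the labels' protocols. Per the submitters' processing notes, fastp 0.19.11, BWA 0.7.12, MACS2 2.1.0 and TAIR10 were used. The authors deposited 1 list of annotated summits for each ChIP library. Which input served each list, and at what threshold, is not given in the sources used here. In the deposited lists the signal column, per the file headers, is a fold (a ratio over local background), and the deposited p and q columns are −log10 values. The deposited score is an integer score, and other columns are positions and distances in base pairs, as the authors gave them.

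Lines with the same interval were joined to 1 peak, and peaks sharing at least 1 bp to regions. A gene's fold is that of its strongest peak in a list, which can lie at another site in another list. Comparisons by region use the strongest peak of each list within a merged region, whose peaks need not all overlap. Fragments follow from MACS2's fold (pile-up plus 1 over background plus 1) and Poisson p. For CND1-FLAG, 300 of 300 checked summits of each list gave whole pile-ups (−log10 p within 0.002). For Col-0, 1 scale per list, 0.723 and 0.739, gave whole numbers (within 0.02 fragments) for 300 of 300. Col-0 backgrounds were divided by this scale. Intervals cover counting error only.

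Libraries were compared by exact two-sided permutation of the difference of means. The members, lists and tests were chosen with earlier results of these data known. Full values are given for up to 5 genes per role group by the worse rank of fold in the CND1-FLAG lists, up to 6 genes of Col-0 lists alone, up to 3 of 1 list alone and up to 3 per pathway list. AT1G29910, AT1G29920, LHB1B1, PSBO1 and PSBS do not come from this rule; they and the summit positions were picked with their values in view, that is, chosen after seeing the data. Alternatives were stricter or equal-length lists, other overlaps, another gene assignment and each library left out. All 58 genes were found in the TAIR10.1 gene table by identifier, used for names and neighbours. The sorting into regions and the pile-ups were tested on simulated data. Python 3.11.15, pandas 2.3.3, numpy 2.4.6, scipy 1.17.1 and matplotlib 3.10.9 were used.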

Additional observations from a re-analysis of the deposited data

How the results depend on the processing

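The number of members with a peak stayed higher in CND1-FLAG than in Col-0 under all 13 alternatives, by 17.5 genes with lists of equal length to 34.5 with −log10 q of at least 5, and by 25 (from 25 to 25) with any library left out. The count of members with a CND1-FLAG-specific region was 27 and lay between 19 and 28 under the alternatives with all libraries. It was 30 to 36 with 1 library left out, when 1 list of that genotype decides. The count with a shared region was 24 and changed most. Keeping −log10 q of at least 5 gave 11, fold of at least 2 gave 2 and the top 50% of each list gave 13. The count was 18 to 25 with 1 library left out. The share of member regions within 1 kb of a gene start, 77.5%, was 86.2% with −log10 q of at least 5, 88.5% with fold of at least 2 and 76.0% to 85.7% with 1 library left out. The cause was not tested. The difference in median summit position, whose alternatives were chosen after seeing the data, ran from -18.1 to -9.39 percentage points with 1 library left out and kept its direction in all 13 alternatives. Between genotypes, the replicate 1 minus replicate 2 difference in log2 fold had a correlation of -0.02 over 2426 regions. Such a value cannot show whether libraries of the same replicate number were handled together. As a replicate block, exact sign flips over the 2 pairs gave 25 genes and p = 0.5, the smallest possible. A member without a peak can hold signal below the calling threshold, which these lists do not measure.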
